A study of Mus musculus with 2 samples.

Results

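The genes described are Bap1 and 9 genes of its known partner proteins, which together form the BAP1 deubiquitinase complex. They were chosen by name, with earlier results of these data known, and all 10 were found among the 17216 genes listed in at least 1 library. BAP1 is a nuclear deubiquitinase that takes ubiquitin off histone H2A, a mark laid down by Polycomb repressive complex 1 (PRC1). An ASXL protein is needed for its activity, FOXK1 and FOXK2 bring it to DNA, and HCF-1 and the sugar transferase OGT are bound to it in most cells. In blood-forming cells, loss of BAP1 or ASXL1 in mice is known to give myeloid disease, and ASXL1 is often mutated in human myeloid leukaemia.

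The RNA came from LT-HSCs (long-term haematopoietic stem cells, sorted by flow cytometry) of C57BL/6 mice, with 1 library from Ccp3-/- mice, which lack the cytosolic carboxypeptidase CCP3, and 1 library from their wild type littermates. The gate was positive for Sca-1, c-Kit and CD150 and negative for lineage markers and CD48. The labels give neither the age, the sex or the number of the animals nor the part of the gene removed. The study asked which genes differ in stem cells without CCP3, an enzyme that trims glutamate residues from proteins.

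Each genotype had 1 library, so no test between genotypes was possible, no value has a replicate check, and every difference is one between these 2 libraries. Values are FPKM, fragments scaled for transcript length and sequencing depth, so levels can be set beside each other between genes of 1 library. The difference between the libraries moved with transcript length, as given below. A ratio between genes of unlike length carries that shift when it is compared between the libraries. The step between low FPKM values implied depths of about 14.1 M reads in the Ccp3-/- library and 15.5 M reads in the wild type library. Intervals given here are 95% intervals from the reads estimated in this way, and they cover counting error only. In bulk RNA, fewer cells of a type and less RNA per cell cannot be told apart.

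Agbl3, the targeted gene, stood at 0.66 FPKM (about 15 reads) in the Ccp3-/- library and 1.11 FPKM (about 23 reads) in the wild type library, with a ratio of 0.595 (0.292 to 1.20). The removed part of the gene is not given and transcripts outside it would still be counted, so Agbl3 does not check the label. Among sort gate genes, Kit stood at 56.5 FPKM in Ccp3-/- and 59.7 FPKM in wild type, Ly6a (Sca-1) at 28.4 FPKM in Ccp3-/- and 49.1 FPKM in wild type, and Slamf1 (CD150) at 3.40 FPKM in Ccp3-/- and 2.14 FPKM in wild type. Cd48 RNA, of the protein that the gate excluded, was present at 114 FPKM in Ccp3-/- and 136 FPKM in wild type. Counts past 1.5-fold here use log2(FPKM + 1) and genes averaging 1 FPKM or more. Of all 11985 such genes, 6.11% were higher in Ccp3-/- and 6.13% lower. All 10 LT-HSC markers were listed, with summed levels of 147 FPKM in Ccp3-/- and 207 FPKM in wild type, and 3 of them, among them Procr and Ly6a, were at least 1.5-fold lower. The 12 neutrophil lineage markers summed to 11975 FPKM in the Ccp3-/- library and 8630.4 FPKM in the wild type library, 7 of them at least 1.5-fold higher, with Mmp8, Ctsg and Ms4a3 differing most. Camp went the other way, at 152 FPKM in Ccp3-/- and 207 FPKM in wild type. Ngp was near level, at 565 FPKM in Ccp3-/- and 581 FPKM in wild type. The 9 B cell markers summed to 59.4 FPKM in Ccp3-/- and 130.04 FPKM in wild type, with 8 at least 1.5-fold lower, led by Igll1 and Vpreb1. The 9 dendritic cell markers summed to 291 FPKM in Ccp3-/- and 505 FPKM in wild type, with 6 at least 1.5-fold lower, led by H2-Aa, Siglech and Flt3. Xcr1 was low and not lower, at 1.19 FPKM in Ccp3-/- and 1.12 FPKM in wild type. Batf3 was near the floor, at 0.31 FPKM in Ccp3-/- and 0.29 FPKM in wild type. The intervals of both ratios spanned 1. Flt3 is not particular to dendritic cells and was also listed with Cd48 and Cd34 as a multipotent progenitor gene. It stood at 82.5 FPKM in Ccp3-/- and 155 FPKM in wild type, and Cd34 at 177 FPKM in Ccp3-/- and 248 FPKM in wild type. These 3 progenitor genes summed to 373 FPKM in Ccp3-/- and 539 FPKM in wild type. The 8 erythroid markers summed to 323 FPKM in Ccp3-/- and 1386 FPKM in wild type, with 6 lower, led by Hba-a1, Hbb-bs and Hba-a2. Globin RNA made up most of both sums, Hba-a1 alone standing at 155 FPKM in Ccp3-/- and 764 FPKM in wild type. The other 2 were higher in Ccp3-/-, with intervals of the ratio that spanned 1. They were Klf1 (6.77 FPKM in Ccp3-/- and 5.76 FPKM in wild type) and Epor (2.12 FPKM in Ccp3-/- and 1.60 FPKM in wild type). The part of this shift in cell markers in the differences below was not tested.

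Promoter sequence was looked at for the members, since several of the complex's partner factors bind DNA. RefSeq windows of build GRCm38.p6, from 250 bases before to 50 bases after a gene's start, matched 9 of the 10 members, in 12 windows. Their GC content ran from 42.3% to 79.3% with a median of 67.0%, against 52.7% over all 32851 windows, and the median number of CpG dinucleotides was 23.5, against 7. The 32851 windows were not limited to expressed genes, as the members are. Whether windows of other expressed genes differ from all windows in the same way was not tested. Searched on both strands were GCCATNTT for YY1, CTACAANTC for THAP11 and ZFP143, CCGGAAG for GABPA and the FOXK forkhead motif GTAAACA, which are held by 6.05%, 1.42%, 8.86% and 3.65% of all windows. These motifs were chosen after the sequences had been seen. A match is a description of letters and not a site of binding.

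The 3 stretches of 250 bases directly before the start printed here run 5′ to 3′ on the strand of the gene, with motif matches in capitals. The Asxl1 stretch is shown because it held 3 of the 4 motifs, that of Hcfc1 because it belongs to the gene of the factor that YY1 and THAP11 bring to promoters, and that of Foxk2 because this gene differed most between the libraries.
Asxl1, chr2:153345580-153345829, plus strand: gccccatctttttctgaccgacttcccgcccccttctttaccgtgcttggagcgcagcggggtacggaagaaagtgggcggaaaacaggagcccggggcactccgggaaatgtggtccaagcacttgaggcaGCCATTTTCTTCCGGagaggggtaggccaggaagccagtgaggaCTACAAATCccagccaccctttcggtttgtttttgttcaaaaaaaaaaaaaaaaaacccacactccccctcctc
Hcfc1, chrX:73966358-73966607, minus strand: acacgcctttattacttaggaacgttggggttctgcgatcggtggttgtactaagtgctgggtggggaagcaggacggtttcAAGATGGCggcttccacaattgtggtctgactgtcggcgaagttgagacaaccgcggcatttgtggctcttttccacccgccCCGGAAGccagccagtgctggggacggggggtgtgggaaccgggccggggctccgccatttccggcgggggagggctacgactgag
Foxk2, chr11:121259737-121259986, plus strand: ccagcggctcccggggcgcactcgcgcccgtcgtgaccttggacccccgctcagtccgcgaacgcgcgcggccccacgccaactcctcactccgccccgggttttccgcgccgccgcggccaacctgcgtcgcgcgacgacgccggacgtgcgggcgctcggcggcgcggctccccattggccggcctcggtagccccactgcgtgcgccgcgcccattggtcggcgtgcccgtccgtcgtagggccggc
In the Asxl1 stretch the YY1 match began 118 bases, the GABPA match 110 bases and the THAP11 and ZFP143 match 74 bases before the start, and none of the 3 overlapped. Hcfc1 had a YY1 match at 168 bases and a GABPA match at 86 bases before the start, and a further YY1 match from base 25 after it. Asxl2 and Mbd5 each had 1 GABPA match, and these letters were not found in the windows of Bap1, Foxk2, Ogt, Kdm1b and Mbd6. The Foxk2 window was the richest of the 12 in GC (79.3%) and in CpG dinucleotides (59).

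All 10 genes were expressed at moderate levels in both libraries, from 3.90 FPKM for Mbd5 to 55.7 FPKM for Mbd6 in the Ccp3-/- library and from 4.09 to 48.6 FPKM for the same genes in the wild type library. Bap1 itself was nearly equal in the 2 libraries in the values as deposited. Foxk2 was the member that differed most, 2.03-fold higher in the Ccp3-/- library, followed by Asxl2 (1.53-fold) and Foxk1 (1.52-fold), then Hcfc1 (1.33-fold). Kdm1b was the only member whose interval lay below a ratio of 1. The plot of levels by gene shows all 20 values.

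**Figure D1:**
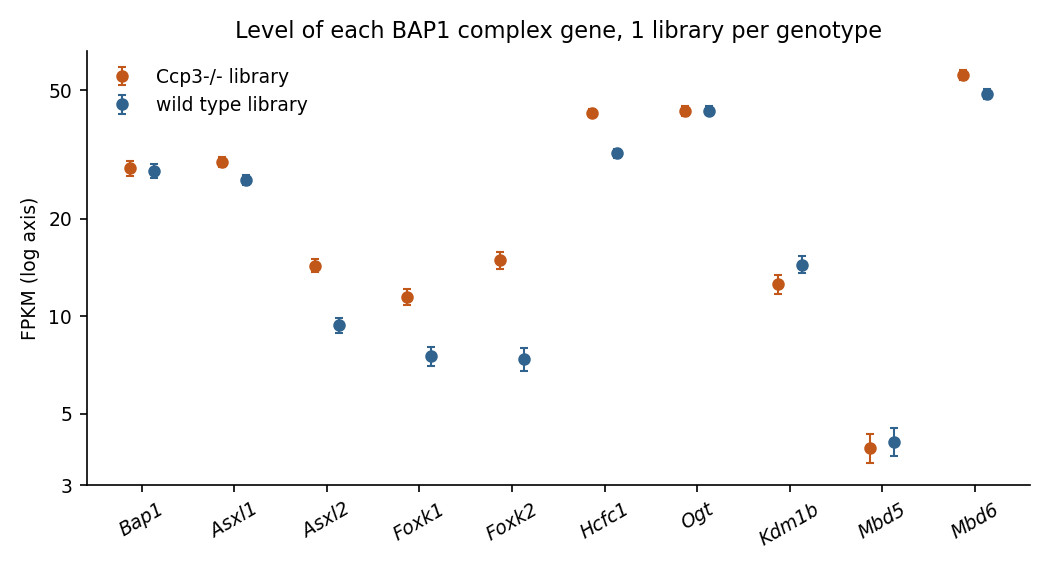
FPKM on a log axis for each of the 10 genes, with the Ccp3-/- library in orange on the left and the wild type library in blue on the right, and bars for the 95% counting interval of 1 library. The intervals of the 2 libraries overlap for Bap1, Ogt and Mbd5 and stand apart for the other members, by most for Foxk2.

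Bap1 (Entrez gene 104416), the catalytic subunit, was listed at 28.7 FPKM (about 1368 reads) in the Ccp3-/- library and 28.1 FPKM (about 1464 reads) in the wild type library. The ratio was 1.02 (0.948 to 1.10), so a difference of 1.5-fold lay outside the counting interval in either direction. Its level was above that of 82.1% of listed genes in the Ccp3-/- library and 82.0% in the wild type library.

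The ASXL proteins bind BAP1 through their DEUBAD domain and switch on its activity. Asxl1 (Entrez gene 228790) was listed at 29.98 FPKM (about 2812 reads) in the Ccp3-/- library and 26.4 FPKM (about 2713 reads) in the wild type library, a ratio of 1.13 (1.08 to 1.20). Asxl2 (Entrez gene 75302) was listed at 14.3 FPKM (about 1810 reads) in the Ccp3-/- library and 9.37 FPKM (about 1293 reads) in the wild type library, a ratio of 1.53 (1.42 to 1.64). Both were therefore higher in the Ccp3-/- library by more than counting error, Asxl2 by more than Asxl1, though Asxl1 turned to the lower side (-0.12 on the log2(FPKM + 1) scale) when set against genes of its transcript length. Asxl2 made up 32.3% of the summed Asxl1 and Asxl2 level in the Ccp3-/- library and 26.2% in the wild type library. The Asxl2 to Asxl1 ratio was 1.35-fold higher in the Ccp3-/- library (1.23 to 1.47), and Asxl1 remained the more abundant of them in both.

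FOXK1 and FOXK2 are forkhead transcription factors that bind DNA by sequence and recruit BAP1 to their sites. Foxk1 (Entrez gene 17425) was listed at 11.4 FPKM (about 1200 reads) in the Ccp3-/- library and 7.52 FPKM (about 864 reads) in the wild type library, a ratio of 1.52 (1.39 to 1.66). Foxk2 (Entrez gene 68837) was listed at 14.9 FPKM (about 1051 reads) in the Ccp3-/- library and 7.35 FPKM (about 568 reads) in the wild type library, a ratio of 2.03 (1.83 to 2.25). Foxk2 was above Foxk1 in the Ccp3-/- library by more than their counting intervals, whereas in the wild type library the intervals of the 2 levels overlapped. Foxk2 made up 56.6% of the pair's summed level in the Ccp3-/- library and 49.4% in the wild type library. The Foxk2 to Foxk1 ratio was 1.33-fold higher in the Ccp3-/- library (1.16 to 1.52), and the pair together summed to 26.3 FPKM in the Ccp3-/- library and 14.9 FPKM in the wild type library.

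**Figure D2:**
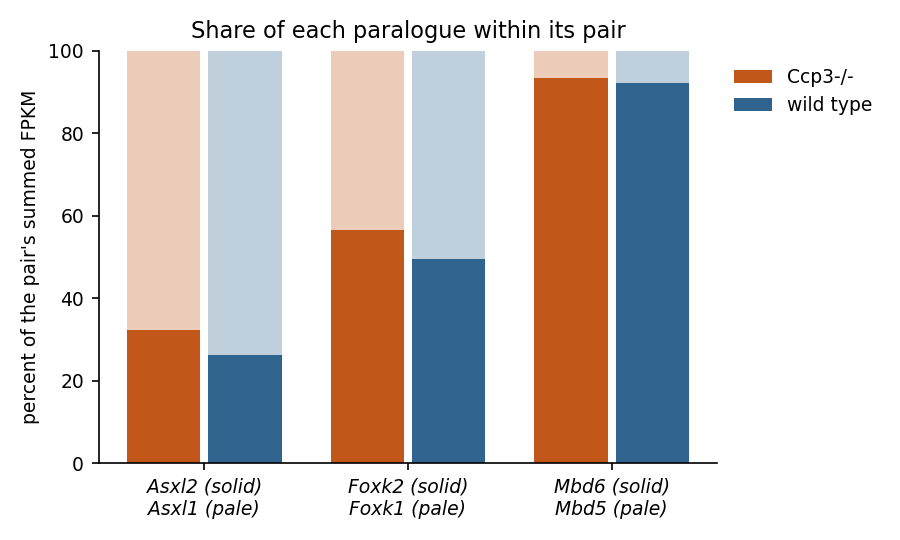
Percent of the summed FPKM of each paralogue pair taken by Asxl2, Foxk2 and Mbd6 (solid) and by Asxl1, Foxk1 and Mbd5 (pale), with the Ccp3-/- library on the left and the wild type library on the right. The solid share is larger in the Ccp3-/- library in each pair, by most for Foxk2 (56.6% in Ccp3-/- and 49.4% in wild type) and by least for Mbd6 (93.5% in Ccp3-/- and 92.2% in wild type).

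HCF-1 is a large adaptor protein that bridges transcription factors and chromatin enzymes, and OGT adds O-GlcNAc sugars to nuclear proteins and cuts HCF-1 into its mature form. Hcfc1 (Entrez gene 15161), which encodes HCF-1, was listed at 42.5 FPKM (about 4864 reads) in the Ccp3-/- library and 32.0 FPKM (about 4006 reads) in the wild type library, a ratio of 1.33 (1.27 to 1.39). Ogt (Entrez gene 108155) was listed at 43.1 FPKM (about 3199 reads) in the Ccp3-/- library and 43.2 FPKM (about 3511 reads) in the wild type library, a ratio of 0.997 (0.950 to 1.05). Of these partners, Hcfc1 was the higher in the Ccp3-/- library and Ogt was level. In the Ccp3-/- library the intervals of Ogt and Hcfc1 overlapped, while in the wild type library Ogt stood above Hcfc1.

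Both genes lie on the X chromosome, and sex-linked transcripts differed between the libraries. Xist, the RNA of the inactive X, was listed at 44.2 FPKM in the Ccp3-/- library and 5.38 FPKM in the wild type library. The Y-linked genes were lower in the Ccp3-/- library, at 11.5 FPKM against 44.6 FPKM in the wild type library for Eif2s3y, 2.10 FPKM against 6.66 FPKM in wild type for Kdm5d, 5.93 FPKM against 13.8 FPKM in wild type for Ddx3y and 1.89 FPKM against 3.73 FPKM in wild type for Uty. The 388 X-linked genes averaging 1 FPKM or more had a median difference of 0.01 on the log2(FPKM + 1) scale, and the 11569 autosomal genes a median of 0.01. The part of the sex-linked shift in the Hcfc1 value was not tested.

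The remaining members act on chromatin. KDM1B is a histone demethylase for methylated lysine 4 of histone H3, and MBD5 and MBD6 carry a methyl-CpG binding domain that ties them to the complex. Kdm1b (Entrez gene 218214) was listed at 12.5 FPKM (about 877 reads) in the Ccp3-/- library and 14.5 FPKM (about 1106 reads) in the wild type library, a ratio of 0.868 (0.793 to 0.949). In the GENCODE annotation of GRCm38, 498 exonic bases of Kdm1b, 9.99% of them, overlap exons of Dek on the other strand. Dek was far more abundant, at 216 FPKM in the Ccp3-/- library and 191 FPKM in the wild type library, and use of strand in the counting is not stated, so that the Kdm1b value is uncertain. No other member shared exonic bases with an overlapping protein-coding gene.

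Mbd6 (Entrez gene 110962) was the most abundant member in both libraries, at 55.7 FPKM (about 3157 reads) in the Ccp3-/- library and 48.6 FPKM (about 3012 reads) in the wild type library, a ratio of 1.15 (1.09 to 1.20). Mbd5 (Entrez gene 109241) was the least abundant, at 3.90 FPKM (about 356 reads) in the Ccp3-/- library and 4.09 FPKM (about 398 reads) in the wild type library, a ratio of 0.954 (0.826 to 1.11). Mbd6 was higher in the Ccp3-/- library by more than counting error, and a difference in Mbd5 was not detectable at this depth. Mbd6 stood 14.3-fold above Mbd5 in the Ccp3-/- library and 11.9-fold in the wild type library.

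The order of the levels was largely shared. Mbd6, Ogt and Hcfc1 were the 3 most abundant members in both libraries, and Asxl1 and Bap1 came next, with overlapping intervals in both. Below them came Foxk2, Asxl2, Kdm1b and Foxk1 in the Ccp3-/- library, where Foxk2 and Asxl2 overlapped, as did Kdm1b and Foxk1. In the wild type library the order of these 4 was Kdm1b, Asxl2, Foxk1 and Foxk2, with an overlap of the last 2 alone, and Mbd5 came last in both. Foxk2 moved furthest in this order, standing at rank 6 in the Ccp3-/- library and rank 9 in the wild type library, and its level was above that of 68.5% of listed genes in the Ccp3-/- library and 54.4% in the wild type library.

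**Figure D3:**
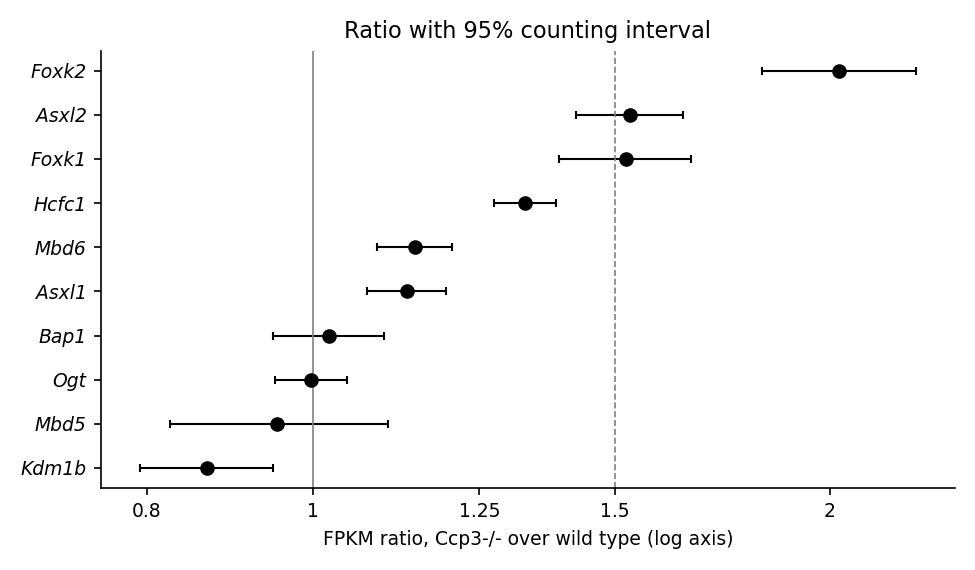
FPKM ratio of the Ccp3-/- library over the wild type library on a log axis, 1 row per gene in order of the ratio, with 95% counting intervals, a solid line at 1 and a dashed line at 1.5. Foxk2 at 2.03 is the only member whose whole interval lies past 1.5, the intervals of Asxl2 and Foxk1 span 1.5, and those of Bap1, Ogt and Mbd5 span 1.

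Counted by a rule of size, 1 of the 10 members, Foxk2, was at least 1.5-fold higher in the Ccp3-/- library and 0 were at least 1.5-fold lower. The rule used differences in log2(FPKM + 1), a scale on which changes of low genes look smaller, and kept genes averaging 1 FPKM or more, as all 10 members did. Across all 11985 such genes, 6.11% passed this rule in the higher direction and 6.13% in the lower. Asxl2, at a difference of 0.56, and Foxk1, at 0.55, lay just under the threshold of 0.58, and with a pseudocount of 0.1 in place of 1 the count was 3 members higher and 0 lower, against 8.29% of all genes higher and 8.39% lower. With both libraries scaled to the same FPKM sum it was 4 members higher and 0 lower, against 12.3% of all genes higher and 3.31% lower. At 2-fold in log2(FPKM + 1) of the values as deposited, 0 members passed in either direction, Foxk2 lying at 0.93 where 2-fold is 1, against 1.21% of all genes higher and 1.55% lower. The counting interval of the ratio lay above 1 for 6 members and below 1 for 1 member, against 31.1% and 27.1% of all genes. These shares of all genes are not matched to the members in read number or transcript length, and both affect whether an interval leaves out 1.

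The median difference of the members was 0.18 on the log2(FPKM + 1) scale, against 0.01 over all 11985 genes, with 7 members above 0 and 3 below. The members have long transcripts, with a median of 5850 bases against 2686 bases over all genes, and the difference moved with length across the whole table. Genes under 1000 bases had a median difference of -0.30, those of 5000 to 8000 bases 0.22 and those over 8000 bases 0.34. Of the genes of 5000 to 8000 bases, 11.9% were at least 1.5-fold higher in the Ccp3-/- library. When each gene was set against the median of the 200 genes nearest to it in length, the median of the members was 0.02.

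**Figure D4:**
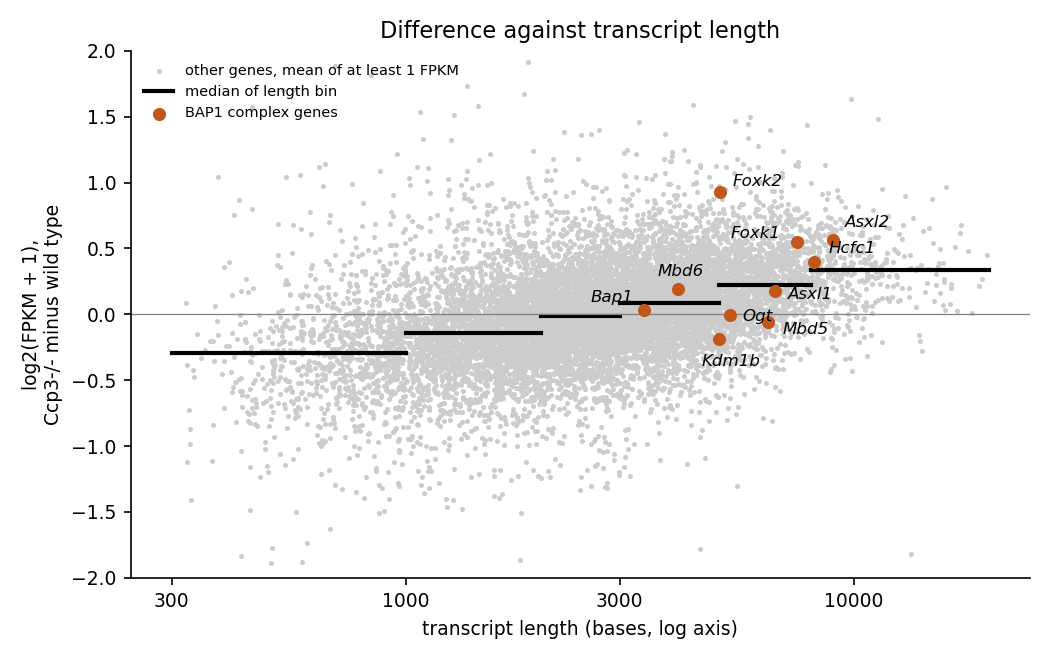
Difference in log2(FPKM + 1), Ccp3-/- minus wild type, against transcript length in bases on a log axis, for genes averaging 1 FPKM or more (grey, those between 300 and 20000 bases and within 2 of zero), with the median of each length bin as a black bar and the 10 BAP1 complex genes in orange. Foxk2, at 0.93, stands far above the bar at its length, Hcfc1 and Asxl1 lie near theirs, and Mbd5 and Kdm1b lie below.

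Before this centring, 4 of the 200 genes nearest to Foxk2 in length were higher in the Ccp3-/- library by more than Foxk2 was. After it, Foxk2 kept a difference of 0.75. Foxk1 and Asxl2 kept 0.27 and 0.23. Of the 200 genes nearest to each in length, 33 had a larger difference than Foxk1 and 41 a larger one than Asxl2 before centring. Hcfc1, at 0.40 before centring, came to 0.07, since genes of its length had a median of 0.33. Asxl1, at 0.18 before centring, came to -0.12, and Bap1 came to -0.02. Mbd5 and Kdm1b, at -0.31 and -0.34, lay lowest. The Foxk2 difference thus lay past 1.5-fold on both scales, while the direction of Asxl1 and Bap1 turned. Why the difference moved with transcript length was not tested.

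Genes related to the members were described in 8 lists, together 89 genes, of which 84 averaged 1 FPKM or more. In the Ccp3-/- library 5 of these 84 (5.95%) were higher by 1.5-fold or more and 2 (2.38%) were lower. Over all 11985 genes averaging 1 FPKM or more the shares were 6.11% higher and 6.13% lower. The share of higher list genes was thus near that of all genes, and the counts per list below are read against the same shares. The median difference of the 84 genes was 0.15. The plot of lists shows each gene.

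Among 9 paralogues of the members, 1 was at least 1.5-fold higher and 0 were lower, with a median of 0.23. That gene was Mbd2, a reader of methylated CpG, at 62.9 FPKM in the Ccp3-/- library and 38.7 FPKM in the wild type library. The most abundant others were Mbd3, a subunit of the NuRD complex, at 66.3 FPKM in Ccp3-/- and 56.3 FPKM in wild type, and Uchl5, a proteasome-bound deubiquitinase of the same enzyme family as BAP1, at 64.1 FPKM in the Ccp3-/- library and 48.8 FPKM in the wild type library. Uchl5 thus exceeded Bap1 2.23-fold in the Ccp3-/- library and 1.74-fold in the wild type library. Kdm1a, the better known relative of Kdm1b, exceeded it 2.38-fold in the Ccp3-/- library and 1.68-fold in the wild type library.

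The 22 PRC1 genes, whose proteins add the ubiquitin that BAP1 removes, held no gene past 1.5-fold in the higher direction and 1 in the lower, and their median was 0.14. The lower gene was Pcgf1, a subunit of a variant PRC1, at 9.61 FPKM in the Ccp3-/- library and 16.5 FPKM in the wild type library. Its difference of -0.72 was -0.48 after centring on genes of similar length, no longer past 1.5-fold, and with a pseudocount of 5 or equal FPKM sums it did not pass either. The most abundant were Kdm2b, which brings variant PRC1 to CpG islands, at 27.99 FPKM in Ccp3-/- and 24.5 FPKM in wild type, and Bcor, at 26.6 FPKM in the Ccp3-/- library and 23.8 FPKM in the wild type library. The catalytic subunit Rnf2 stood at 21.3 FPKM in Ccp3-/- and 20.1 FPKM in wild type, and was named after its value was seen. None of 9 other H2A deubiquitinases passed 1.5-fold on the log2(FPKM + 1) scale, where their median was 0.19, with 7 above 0 and 2 below. Usp46, at a ratio of 1.54 (1.29 to 1.83), passed with a pseudocount of 0.1 and with equal FPKM sums. Usp44, low at 1.40 FPKM in Ccp3-/- and 0.78 FPKM in wild type, passed with a pseudocount of 0.1 (ratio 1.79, 1.15 to 2.86). Their most abundant members were Brcc3 (25.4 FPKM in the Ccp3-/- library and 22.2 FPKM in the wild type library), Usp16 (21.7 FPKM in Ccp3-/- and 20.1 FPKM in wild type) and Usp22 (15.3 FPKM in Ccp3-/- and 14.98 FPKM in wild type).

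Among 12 transcription factors that work with HCF-1 or BAP1, 1 was at least 1.5-fold higher and 0 were lower, with a median of 0.03. Sp1, a general activator of GC-rich promoters, was listed at 16.7 FPKM in the Ccp3-/- library and 9.41 FPKM in the wild type library, a ratio of 1.78 (1.65 to 1.92). After centring on genes of similar length its difference of 0.77 was 0.47, which does not pass 1.5-fold, while that of Yy1, 0.56 before centring, was 0.60 and did. Of the most abundant others, Yy1 stood at 53.5 FPKM in the Ccp3-/- library and 35.97 FPKM in the wild type library, and E2f4 at 63.4 FPKM in Ccp3-/- and 63.5 FPKM in wild type. Gabpa, at a ratio of 1.53 (1.41 to 1.66), passed 1.5-fold with a pseudocount of 0.1 and with equal FPKM sums. Of the 12 factors, 7 lay above 0 and 5 below. Among 12 chromatin modifiers bound by HCF-1, 1 was higher and 0 were lower, with a median of 0.19. Setd1b, a histone H3 methyltransferase, was listed at 22.1 FPKM in the Ccp3-/- library and 14.1 FPKM in the wild type library, and its difference of 0.62 was 0.28 after centring, no longer past 1.5-fold, nor did it pass with a pseudocount of 5. The abundant Dpy30 stood at 125 FPKM in Ccp3-/- and 151 FPKM in wild type, and Hdac1 at 88.7 FPKM in Ccp3-/- and 95.4 FPKM in wild type.

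Of the genes that supply the OGT substrate UDP-GlcNAc or remove its product, 5 of 6 had a mean of at least 1 FPKM and none passed 1.5-fold, with a median of 0.19. Oga, the enzyme that removes O-GlcNAc, was listed at 22.9 FPKM in the Ccp3-/- library and 19.9 FPKM in the wild type library, and Ogt exceeded it 1.88-fold in Ccp3-/- and 2.17-fold in wild type. Uap1, which makes UDP-GlcNAc, stood at 20.9 FPKM in the Ccp3-/- library and 15.1 FPKM in the wild type library, and Gnpnat1 at 11.8 FPKM in Ccp3-/- and 11.0 FPKM in wild type.

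Among 8 other proteins reported to interact with BAP1, 2 genes were at least 1.5-fold higher and 0 were lower, with a median of 0.23. Tnpo1, a nuclear import receptor for BAP1, was listed at 28.6 FPKM in the Ccp3-/- library and 13.1 FPKM in the wild type library, a ratio of 2.18 (2.03 to 2.35). Klf5, a transcription factor stabilised by BAP1, was low, at 1.87 FPKM (about 45 reads) in Ccp3-/- and 0.70 FPKM (about 18 reads) in wild type, and did not pass 1.5-fold with a pseudocount of 5. Mcrs1, a protein that BAP1 stabilises, stood at 25.8 FPKM in Ccp3-/- and 28.2 FPKM in wild type.

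**Figure D5:**
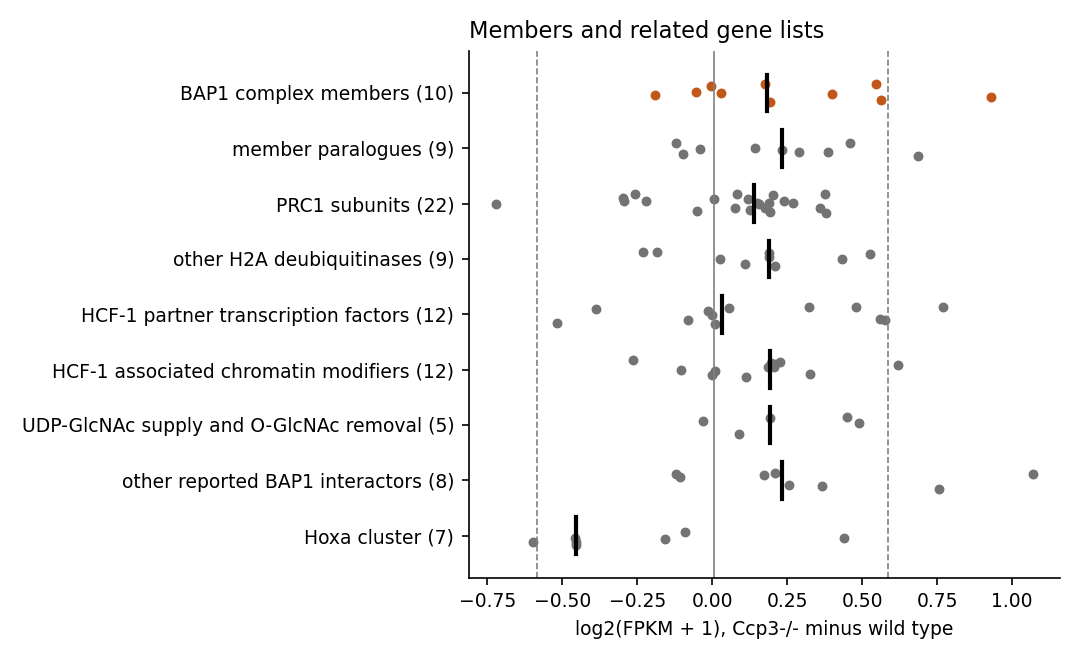
Difference in log2(FPKM + 1), Ccp3-/- minus wild type, of each gene averaging 1 FPKM or more, by list, with the number of such genes in brackets, a black bar for the list median, a grey line at the median of all genes and dashed lines at 1.5-fold. Foxk2 is the only BAP1 complex gene past the dashed line, and the Hoxa cluster alone has a median below the grey line, at -0.45.

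The Hoxa cluster holds classical Polycomb targets, some of which respond to loss of Asxl1 in mouse blood cells. Of its 11 genes, 9 were listed and 7 had a mean of at least 1 FPKM, of which 1 was at least 1.5-fold lower in the Ccp3-/- library and 0 were higher on the log2(FPKM + 1) scale, with a median of -0.45. Hoxa7 was listed at 11.1 FPKM in the Ccp3-/- library and 17.4 FPKM in the wild type library, Hoxa9 at 24.5 FPKM in Ccp3-/- and 34.0 FPKM in wild type, and Hoxa5 at 6.65 FPKM in Ccp3-/- and 7.53 FPKM in wild type. The median of the cluster was -0.22 with a pseudocount of 5, -0.24 without the filter on low values and -0.27 with equal FPKM sums. After centring it was -0.42. Hoxa7 did not pass 1.5-fold after centring (-0.52), with a pseudocount of 5 or with equal FPKM sums, and the counting interval of Hoxa5's ratio spanned 1 (0.717 to 1.08). Hoxa4, named after its value was seen, was listed at 2.08 FPKM in the Ccp3-/- library and 1.27 FPKM in the wild type library, a ratio of 1.64 (1.01 to 2.74) and a difference of 0.44 on the log2(FPKM + 1) scale.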

How the data were processed

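RNA of sorted cells was sequenced on a BGISEQ-500 instrument, per the labels, and each library's deposited file gave an Entrez gene, its transcripts, a transcript length and an FPKM value computed by the authors. Per the submitters' processing notes, the tools were HISAT, HISAT2 and RSEM and the build was mm9, with roles and settings not stated. A gene missing from a file was taken as 0 FPKM. Symbols came from a RefSeq table of GRCm38.p6, which matched 17169 of 17216 genes. Because the builds differ, coordinates are given for RefSeq promoter windows only.

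Whole reads were estimated from FPKM times length less an offset of 33 bases (Ccp3-/-) and 43 bases (wild type), divided by steps of 70.8 (Ccp3-/-) and 64.6 (wild type). Step and offset were chosen to bring low values closest to whole reads, and 88.3% of 248 such values (Ccp3-/-) and 87.6% of 266 (wild type) lay within 0.15 of one. Exact conditional intervals of the ratio and exact Poisson intervals of levels used these reads, and intervals for ratios of ratios a normal approximation on the log scale. No test was made. The procedure was tested on simulated data. Named genes were all members, the targeted gene, gate and sex-linked genes, and per list those past 1.5-fold, filled up with the most abundant to about 3, or for marker lists the 3 with the largest differences. Some genes that this rule names are left out here. Camp, Ngp, Klf1, Epor, Xcr1, Batf3, Cd34, Usp44, Usp46 and Gabpa were named outside this rule, after their values were seen. Members and lists were chosen with earlier results of these data known. Software was matplotlib 3.10.9, scipy 1.17.1, pandas 2.3.3 and numpy 2.4.6 under Python 3.11.15.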

Additional observations from a re-analysis of the deposited data

How the results depend on the processing

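Foxk2 stayed at least 1.5-fold higher under each of the 7 alternatives tried, with differences of 0.69 (pseudocount 5) to 1.11 (both libraries scaled to the same FPKM sum). Among them, dropping the filter on low values or raising it to a mean of 5 FPKM changed only which genes were kept. Those settings could not alter the Foxk2 difference. The count of members at least 1.5-fold higher was 4 under equal sums (12.3% of all genes) and 3 at a pseudocount of 0.1 (8.29%), and no alternative gave a member at least 1.5-fold lower. The FPKM sums as deposited were 506124 in the Ccp3-/- library and 577420 in the wild type library. Equal sums moved the median of all genes to 0.18, so the members' median of 0.37 and the 12 list genes then higher are read against that shift. Bap1, at 0.03 as deposited, came to 0.21 with equal sums, so its near equality depended on the scaling. Centring on genes of similar length brought the members' median to 0.022. List genes at least 1.5-fold higher numbered 9 with a pseudocount of 0.1 and 3 with a pseudocount of 5, and those lower were 0 with a pseudocount of 5, with equal sums and after centring. After centring, Sp1 and Setd1b were no longer among the higher list genes and Yy1 was. Ogt and Mbd5 turned positive with equal sums (0.18 and 0.10), and Bap1 and Asxl1 negative after centring (-0.02 and -0.12). Kdm1b, the member with an interval below 1, came to -0.01 with equal sums. These values have no test, and apart from the shift of all genes and the length medians given above the cause was not tested. No paired analysis was possible because each genotype had 1 library, and for the same reason no library could be left out. Reads per member, from about 356 to 4864, limit the precision of single ratios.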
